A study of Mus musculus with 21 samples.

Results

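Tardbp, the mouse gene for TDP-43, was read by 4 probe sets, out of 22690 probe sets on the array, in the cerebral cortex of 21 mice. They were all the probe sets that the probe-gene table assigns to the symbol Tardbp, and no further probe set carries Tardbp beside another symbol. A probe set is a group of short probes against stretches of a gene's transcripts, and each of the 4 is described separately below, in the order of its mean level: 1428467_at, 1423723_s_at, 1455655_a_at and 1434419_s_at. By the maker's naming, a plain _at suffix marks probes matched to a single transcript, _a_at probes shared by variants of a gene, and _s_at probes that can match several transcripts. The probe sequences were not used here, so the part of the transcript that each probe set reads, and whether any of them reads RNA of the transgene, were not tested.

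Each mouse was measured on 1 Affymetrix MOE430A 2.0 array from total RNA of the cortex. All mice were on a mixed C57BL/6J x C3HeJ background and had been off doxycycline for 2 weeks. Doxycycline keeps tTA, a transactivator, from switching on a transgene, so its withdrawal allows a TDP-43 transgene to be expressed where tTA is present. The dNLS bigenic group held 5 mice of line NLS4, 4 males and 1 female, with the genotype +/+, where the first sign stands for the TDP-43 transgene, here human TDP-43 lacking a working nuclear localization signal, and the second for tTA. The dNLS monogenic group held 4 mice of the same line, 3 males and 1 female, with the genotype +/-, which carry that transgene without tTA. The WT bigenic group held 4 mice of line WT12, 1 male and 3 females, with both tTA and a transgene for unaltered human TDP-43. The nontransgenic group held 8 mice with the genotype -/-, of which 6 (4 males, 2 females) came from line NLS4 and 2 (both female) from line WT12. In these mice tTA is known to be driven by the Camk2a promoter, which is active in forebrain excitatory neurons, so other cells of the cortex contribute Tardbp RNA without expressing the transgene. Each transgene was represented by 1 line, no group carried tTA alone, and the labels state no ages.

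TDP-43 is a mostly nuclear protein that binds RNA and acts on splicing, polyadenylation and stability of many transcripts. It also limits its own level: when the protein is abundant it binds the 3' untranslated region of its own mRNA, which changes splicing and the choice of polyadenylation site there and leaves less of the mRNA that can be translated. Such feedback is the setting for asking how the endogenous Tardbp transcripts stood in mice that make human TDP-43, either cytoplasmic or unaltered.

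The 4 probe sets did not move as one. In dNLS bigenic cortex 1423723_s_at was 2.49-fold lower than in nontransgenic cortex, 1428467_at was 1.17-fold lower, and 1434419_s_at was 2.16-fold higher. The fourth, 1455655_a_at, had a mean below that of nontransgenic mice but did not pass the test. None of the 4 passed the test in WT bigenic cortex or in dNLS monogenic cortex against nontransgenic cortex. In the dNLS bigenic group 3 of 4 probe sets thus passed, against 19.3% of all 22626 probe sets tested. Among probe sets above the lowest value of the table in at least 4 arrays, tested on their own, the share was 31.5%. All levels below are log2 levels, a change is a difference of log2 levels ± its standard error from limma, and a probe set is said to have passed where the p-value adjusted over all 22626 probe sets lay under 0.05. The p-values rest on the spread between mice, and in bulk cortex fewer cells of a type and less RNA per cell cannot be told apart.

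**Figure D1:**
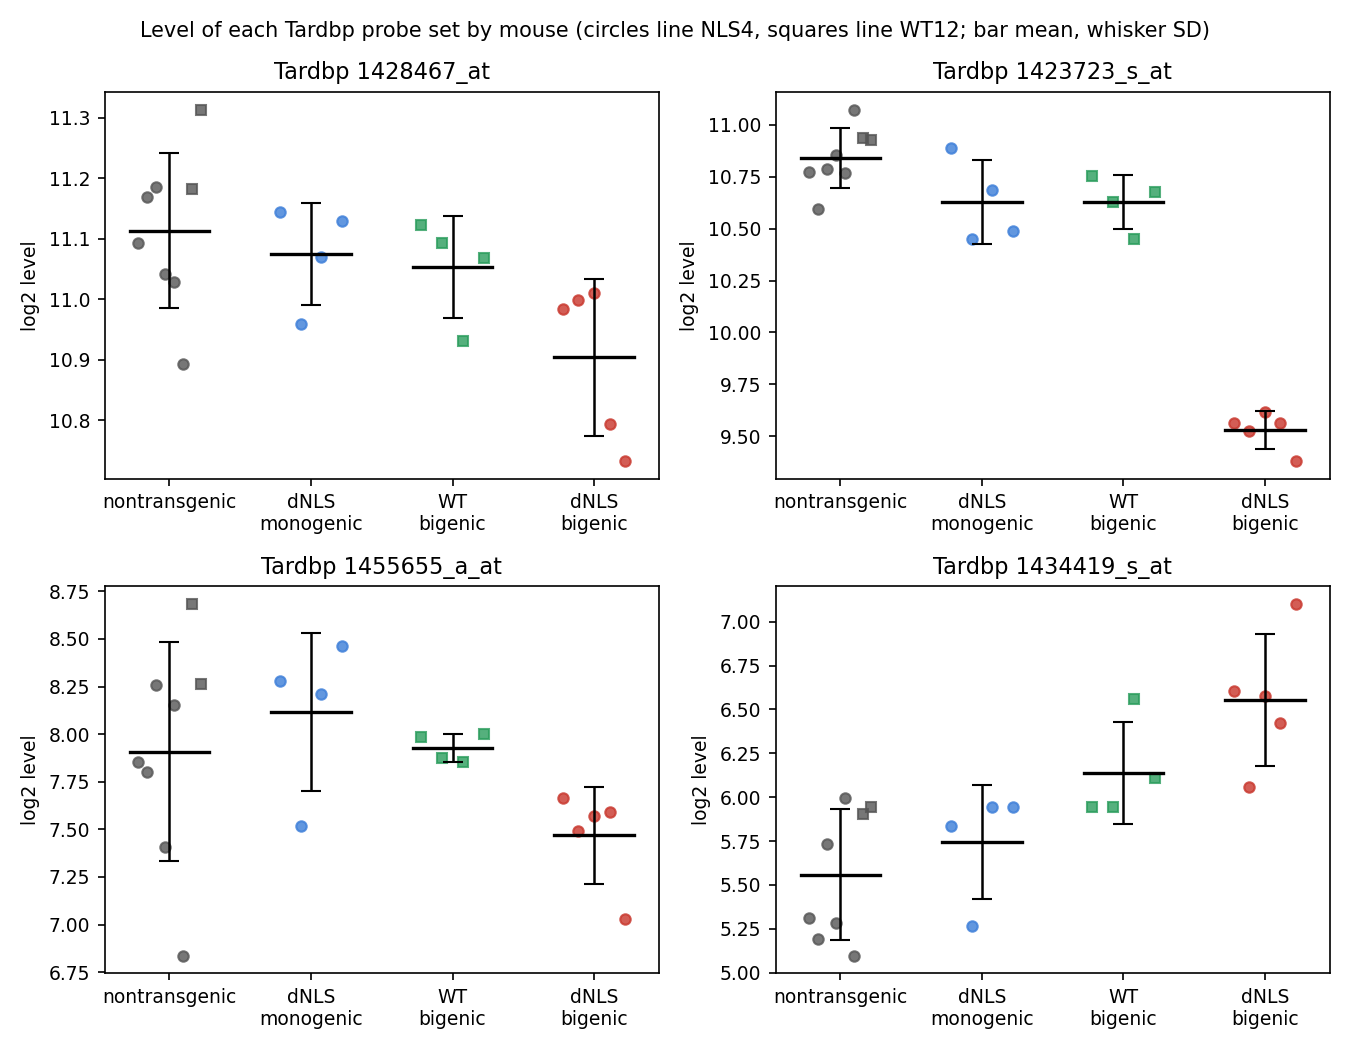
Log2 level of each Tardbp probe set (vertical axis, 1 panel per probe set, each with its own scale) in every mouse of the 4 groups, with circles for line NLS4, squares for line WT12, a bar for the group mean and whiskers for 1 SD. The 5 dNLS bigenic mice lie below all other mice for 1423723_s_at, between 9.38 and 9.62, and above all nontransgenic and dNLS monogenic mice for 1434419_s_at, between 6.06 and 7.10.

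For 1423723_s_at the dNLS bigenic mice read 9.56, 9.53, 9.62, 9.56 and 9.38, a mean of 9.53 ± 0.09 (SD, n = 5). The dNLS monogenic mice read 10.89, 10.45, 10.69 and 10.49, a mean of 10.63 ± 0.20 (SD, n = 4). The WT bigenic mice read 10.76, 10.63, 10.45 and 10.68, a mean of 10.63 ± 0.13 (SD, n = 4). In nontransgenic mice the lowest value was 10.59, the median 10.82 and the highest 11.07, with a mean of 10.84 ± 0.14 (SD, n = 8). Every dNLS bigenic mouse lay below every mouse of the other groups, whereas the dNLS monogenic, WT bigenic and nontransgenic ranges overlapped. The change from nontransgenic was -1.32 ± 0.09 (95% interval -1.495 to -1.135, adjusted p = 1.8e-08), which ranked 32 by p-value among all probe sets. Against dNLS monogenic mice, which carry the same transgene without the driver, it was -1.10 ± 0.10 (adjusted p = 9.2e-07, 2.14-fold lower).

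The probe set 1428467_at had the highest level of the 4, with a mean above that of 83.9% of probe sets. It read 10.984, 10.998, 11.010, 10.79 and 10.73 in dNLS bigenic mice, with a mean of 10.90 ± 0.13 (SD, n = 5). The dNLS monogenic mice read 11.14, 10.96, 11.07 and 11.13, and the WT bigenic mice 11.12, 11.09, 10.93 and 11.07. The nontransgenic mice had a lowest value of 10.89, a median of 11.13 and a highest value of 11.31, with a mean of 11.11 ± 0.13 (SD, n = 8). The dNLS bigenic range overlapped that of each other group. The change of -0.22 ± 0.07 from nontransgenic passed narrowly (adjusted p = 0.024). It passed no longer without dNLS bigenic mouse 4 (-0.20, adjusted p = 0.067) or without dNLS bigenic mouse 5 (-0.17, adjusted p = 0.13).

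The probe set 1434419_s_at was the dimmest, at a mean near the middle of all probe sets (50.0% lay below it), and moved the other way. It read 6.61, 6.06, 6.58, 6.42 and 7.10 in dNLS bigenic mice, with a mean of 6.55 ± 0.38 (SD, n = 5). The dNLS monogenic mice read 5.83, 5.26, 5.94 and 5.94, a mean of 5.75 ± 0.33 (SD, n = 4). The WT bigenic mice read 5.94, 5.94, 6.56 and 6.11, a mean of 6.14 ± 0.29 (SD, n = 4). The nontransgenic mice had a lowest value of 5.10, a median of 5.52 and a highest value of 5.99, with a mean of 5.56 ± 0.37 (SD, n = 8). All dNLS bigenic mice lay above all nontransgenic and dNLS monogenic mice, and their range overlapped that of the WT bigenic mice. The change from nontransgenic was 1.11 ± 0.19 (95% interval 0.716 to 1.504, adjusted p = 3.5e-04), and none of the 21 arrays was at the lowest value of the table, 2.04. The value 5.94 was shared to the last digit by 5 arrays, 2 dNLS monogenic, 2 WT bigenic and 1 nontransgenic; of the 14262 probe sets above the lowest value on all arrays, 11.6% had 5 or more arrays at 1 identical value. No source used here says how such values arose.

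The probe set 1455655_a_at read 7.66, 7.49, 7.57, 7.59 and 7.03 in dNLS bigenic mice, with a mean of 7.47 ± 0.25 (SD, n = 5). The dNLS monogenic mice read 8.28, 7.52, 8.21 and 8.46, a mean of 8.12 ± 0.41 (SD, n = 4), and the WT bigenic mice 7.98, 7.88, 7.85 and 8.001, a mean of 7.93 ± 0.07 (SD, n = 4). The nontransgenic mice spread from 6.84 to 8.68, with a median of 8.01 and a mean of 7.91 ± 0.58 (SD, n = 8). The dNLS bigenic mice lay below all WT bigenic mice and within the nontransgenic range. The change from nontransgenic of -0.43 ± 0.25 did not pass (95% interval -0.97 to 0.11, adjusted p = 0.31). This value depended on which nontransgenic arrays were used, as given with the array quality below.

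**Figure D2:**
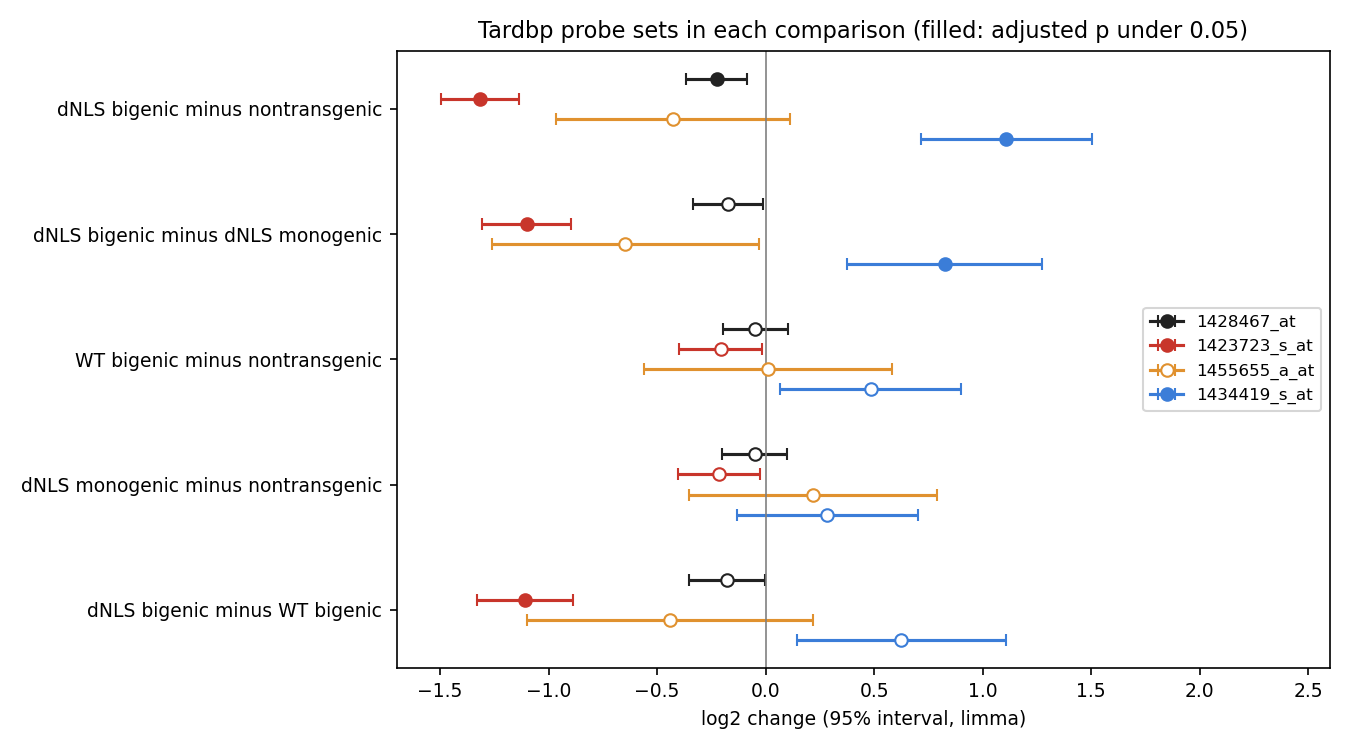
Log2 change with its 95% interval from limma (horizontal axis) for the 4 Tardbp probe sets in 5 comparisons, filled where the adjusted p lay under 0.05. The probe set 1423723_s_at is the only one filled in all 3 comparisons that involve dNLS bigenic mice, and the points of 1434419_s_at lie to the right of 0 in each comparison.

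Within line NLS4, the dNLS bigenic mice were set against dNLS monogenic mice to separate driven from undriven transgene. Here 2 of 4 probe sets passed, against 11.9% of all probe sets: 1423723_s_at was lower, as given above, and 1434419_s_at was higher by 0.83 ± 0.21 (adjusted p = 0.015). The latter did not pass without dNLS monogenic mouse 2 (0.69, adjusted p = 0.063) or without dNLS monogenic mouse 4 (0.79, adjusted p = 0.052). The other two gave -0.17 ± 0.08 for 1428467_at (adjusted p = 0.19) and -0.65 ± 0.29 for 1455655_a_at (adjusted p = 0.20). The undriven transgene on its own was measured by dNLS monogenic against nontransgenic mice. There 0 of 4 probe sets passed, against 0% of all probe sets by limma, and 333 of all probe sets had an unadjusted p under 0.05. The 95% intervals of that comparison ran from -0.41 to -0.02 for 1423723_s_at and from -0.13 to 0.70 for 1434419_s_at. The first of these lies below 0 and 1 of the 4 thus had an unadjusted p under 0.05, while its adjusted p was 1. The comparisons of this and the earlier paragraphs share the dNLS bigenic or the nontransgenic mice and are not independent of each other.

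In WT bigenic mice, which make unaltered human TDP-43, 0 of 4 probe sets passed against nontransgenic mice by limma, against 1.9% of all probe sets. An unadjusted p under 0.05 was found for 2 of the 4 and for 3910 of all 22626 probe sets. The change was -0.21 ± 0.09 for 1423723_s_at (95% interval -0.40 to -0.02, adjusted p = 0.25). It was 0.48 ± 0.20 for 1434419_s_at (95% interval 0.07 to 0.90, adjusted p = 0.21). The changes of 1428467_at and 1455655_a_at were -0.05 ± 0.07 and 0.01 ± 0.27. After each array was centred on its median, which lowered the median change of all probe sets in this comparison by 0.11, the change of 1423723_s_at was -0.32 and passed (adjusted p = 0.031), as did 42.8% of all probe sets; the move from -0.21 is that common shift. Against the 2 nontransgenic mice of line WT12 alone, it was -0.32 ± 0.12 (adjusted p = 0.45), and that of 1434419_s_at was 0.29 ± 0.28 (adjusted p = 1).

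The bigenic groups were also compared with each other. In dNLS bigenic against WT bigenic mice 1 of 4 probe sets passed, against 8.41% of all probe sets. This was 1423723_s_at, at -1.11 ± 0.10 (adjusted p = 3.7e-06, 2.16-fold lower in dNLS bigenic mice). The changes of the other three were -0.18 ± 0.08 for 1428467_at (adjusted p = 0.25), -0.44 ± 0.31 for 1455655_a_at (adjusted p = 0.58) and 0.63 ± 0.23 for 1434419_s_at (adjusted p = 0.12). Line and transgene go together in that comparison. The change of each bigenic group from nontransgenic mice of its own line was therefore also tested as an interaction, which takes out baseline differences between the lines only. Each transgene was still represented by 1 line and its level was not measured here. The form of the protein, the line and the level of the transgene thus cannot be told apart. Again 1 of 4 probe sets passed, against 2.97% of all probe sets: 1423723_s_at changed by 0.97 more in the downward direction in line NLS4 (-0.97 ± 0.15, adjusted p = 0.0020). The change within line NLS4 was -1.29 ± 0.09 with 6 nontransgenic mice, and within line WT12 -0.32 ± 0.12 with 2. For 1434419_s_at the interaction was 0.87 ± 0.33 (adjusted p = 0.22), which does not show that the lines differ or act alike (95% interval 0.16 to 1.58).

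The unequal change of the 4 probe sets was tested within arrays, by the difference between a pair of probe sets on the same array, which a change in the scale of a whole array does not alter. There were 6 pairs and 5 comparisons, or 30 two-sided exact permutation tests, adjusted together. The difference 1428467_at minus 1423723_s_at was 1.37 ± 0.09 in dNLS bigenic mice (SD, n = 5), from 1.23 to 1.47. In nontransgenic mice it was 0.27 ± 0.22 (SD, n = 8), from -0.18 to 0.57. The groups did not overlap, and their means differed by 1.10 (exact permutation p = 7.8e-04, the smallest that 5 against 8 mice can give, adjusted p = 0.0058). Between dNLS bigenic and WT bigenic mice the same difference moved by 0.95 (exact permutation, adjusted p = 0.023). Whichever of the 5 dNLS bigenic mice was left out, it moved by 0.92 to 0.98 but did not pass (exact permutation of 4 against 4 mice, adjusted p from 0.054 to 0.057). The groups still did not overlap, and 4 against 4 mice can give no p below 0.029 by exact permutation. This loss of the call therefore says nothing about the size of the change. The WT bigenic mice did not differ past the threshold from nontransgenic mice (0.15).

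The difference 1423723_s_at minus 1434419_s_at showed the widest split. It was 2.98 ± 0.44 (SD, n = 5) in dNLS bigenic mice and 5.28 ± 0.39 (SD, n = 8) in nontransgenic mice, a change of -2.31 with no overlap (exact permutation, adjusted p = 0.0058). In dNLS monogenic mice it was 4.88 ± 0.29 and in WT bigenic mice 4.49 ± 0.41 (SD, n = 4 each). The change from nontransgenic to WT bigenic mice, -0.79, passed (exact permutation, adjusted p = 0.023), as did 2 other pairs with 1434419_s_at, 1428467_at (-0.64) and 1455655_a_at (-0.56) minus it. Without WT bigenic mouse 3 the change of the pair with 1423723_s_at was -0.59 and did not pass (exact permutation, adjusted p = 0.065). The pair with 1428467_at did not pass without WT bigenic mouse 3 (-0.46) or mouse 4 (-0.65). It also did not pass without nontransgenic mice 4 and 6 together (-0.57, exact permutation, adjusted p = 0.063). That with 1455655_a_at did not pass without WT bigenic mouse 2, 3 or 4, nor when any nontransgenic mouse except mouse 6 was left out. On arrays of like 3' bias, which are defined below, the pair with 1423723_s_at changed by -0.47 (exact permutation, adjusted p = 0.090). That with 1428467_at changed by -0.37 (exact permutation, adjusted p = 0.16). Neither of these passed, and their groups overlapped. The pair with 1455655_a_at changed by -0.65, which is larger than over all arrays, and its groups did not overlap. With 4 against 4 mice it had the smallest p that exact permutation can give, 0.029 (adjusted p = 0.054), so its loss of the call says nothing about its size. Against the 2 nontransgenic mice of line WT12 the changes were -0.52 for the pair with 1423723_s_at and -0.41 for that with 1428467_at. The pair with 1455655_a_at changed by -0.76, and this design was too small for any pair to pass. Between dNLS bigenic and nontransgenic mice 5 of 6 pairs passed, and the share of such pairs passing within other genes was not computed. The exception was 1428467_at minus 1455655_a_at, at 0.23 (exact permutation, adjusted p = 0.39). Of the 5 that passed, 1423723_s_at minus 1455655_a_at did not pass whichever dNLS bigenic mouse was left out (-0.94 to -0.83, exact permutation, adjusted p from 0.054 to 0.057). These adjusted p-values equalled those of tests of 4 against 4 mice adjusted together with them, so this loss says little about the size of the change. Around the group means, over the 21 arrays, 1428467_at and 1455655_a_at deviated together (r = 0.71), as did 1455655_a_at and 1434419_s_at to a lesser degree (r = 0.53), while 1423723_s_at followed none of the others (r from -0.08 to 0.20). These correlations share arrays, and thereby RNA quality, and are given as a description.

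**Figure D3:**
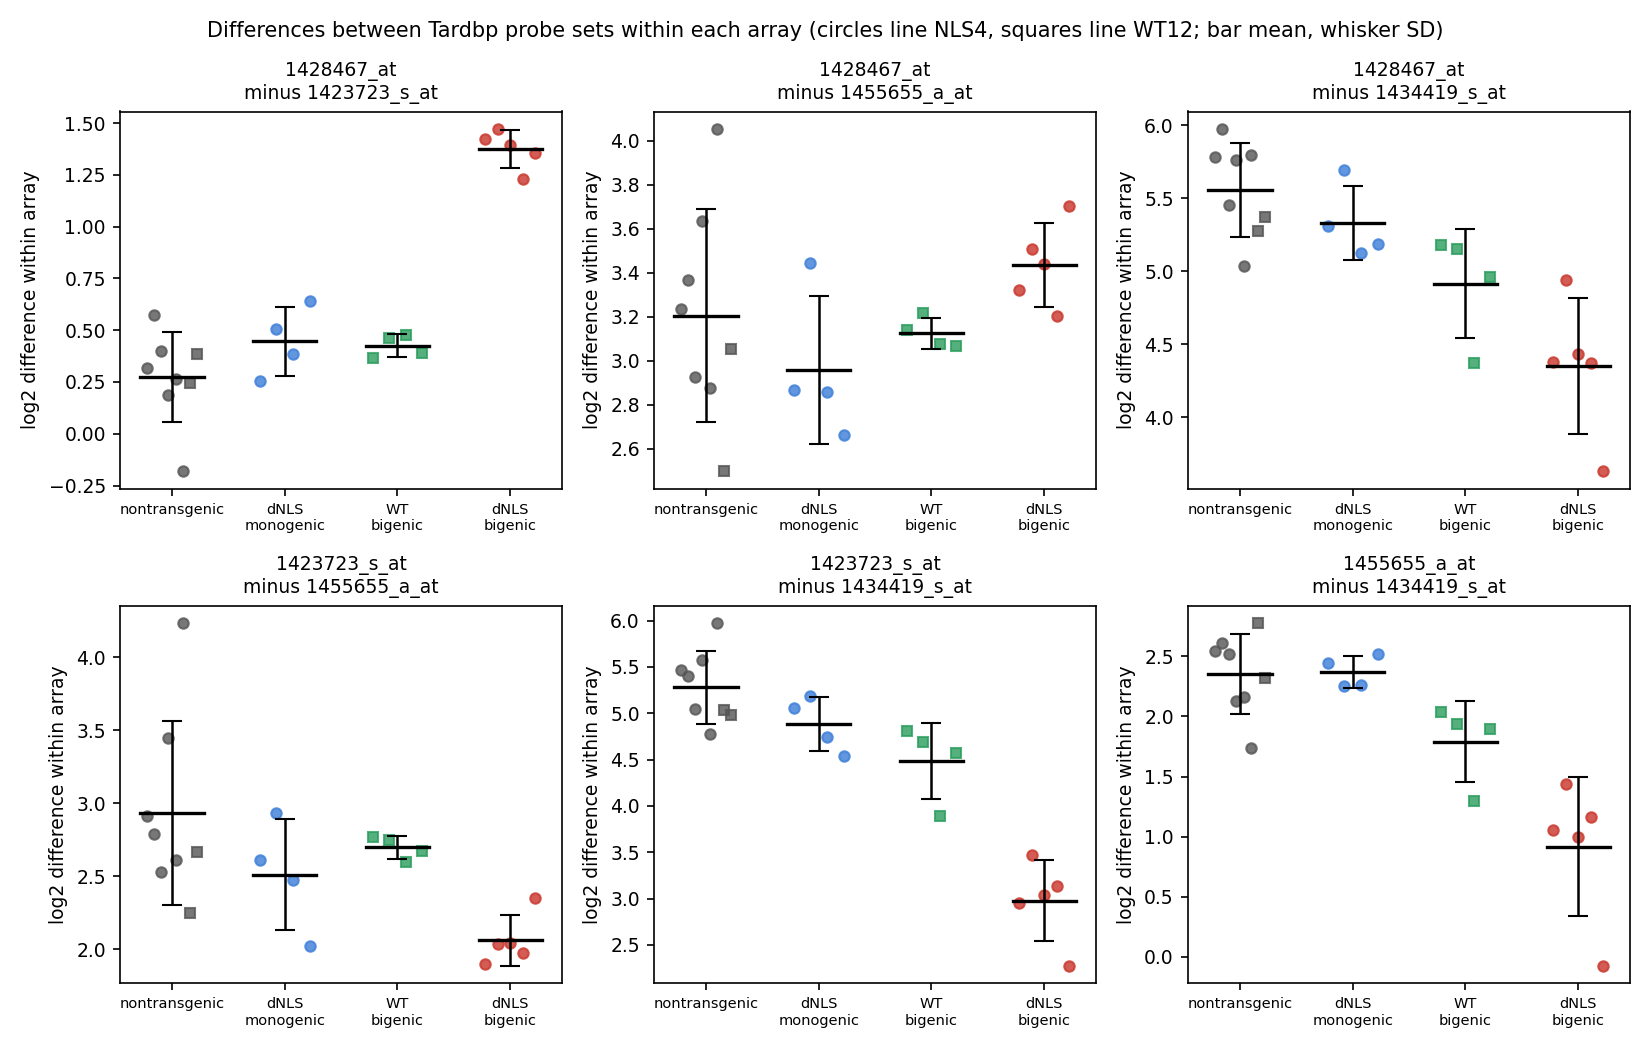
Log2 difference between each pair of Tardbp probe sets within an array (vertical axis) for every mouse of the 4 groups, with circles for line NLS4, squares for line WT12, a bar for the mean and whiskers for 1 SD. In the panel of 1428467_at minus 1423723_s_at the dNLS bigenic mice lie between 1.23 and 1.47 and all other mice at 0.64 or lower.

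RNA quality differed between arrays and moved with some Tardbp probe sets. It was measured by the control probe sets of Actb, as the log2 level at the 3' end minus that at the 5' end, which is larger where the 5' part of transcripts is less represented. This 3' bias was 3.18 ± 2.31 (SD, n = 8) in nontransgenic mice, with a range of 1.46 to 8.20, and 1.75 ± 0.35 (SD, n = 5) in dNLS bigenic mice. It was 2.00 ± 0.76 in dNLS monogenic and 1.39 ± 0.03 in WT bigenic mice (SD, n = 4 each). Nontransgenic mice 6 and 4 had the highest values, 8.20 and 4.70.

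Within the nontransgenic group, 4 correlations with the bias were computed, with exact permutation p-values adjusted over the 4. The level of 1455655_a_at fell with the bias (n = 8, r = -0.94, exact permutation adjusted p = 0.0017; rho = -0.86, adjusted p = 0.021). Without nontransgenic mice 4 and 6 its r was -0.80 (n = 6, adjusted p = 0.093 by exact permutation). The level of 1434419_s_at also fell with it (n = 8, r = -0.78, exact permutation adjusted p = 0.0019; rho = -0.95, adjusted p = 0.0046), and did so without those 2 mice (r = -0.96, adjusted p = 0.017). For 1428467_at the relation rested on those 2 mice (n = 8, r = -0.75, exact permutation adjusted p = 0.044; r = -0.06 without them). For 1423723_s_at it did not pass (n = 8, r = 0.47, exact permutation adjusted p = 0.24) and changed sign without them (r = -0.84).

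**Figure D4:**
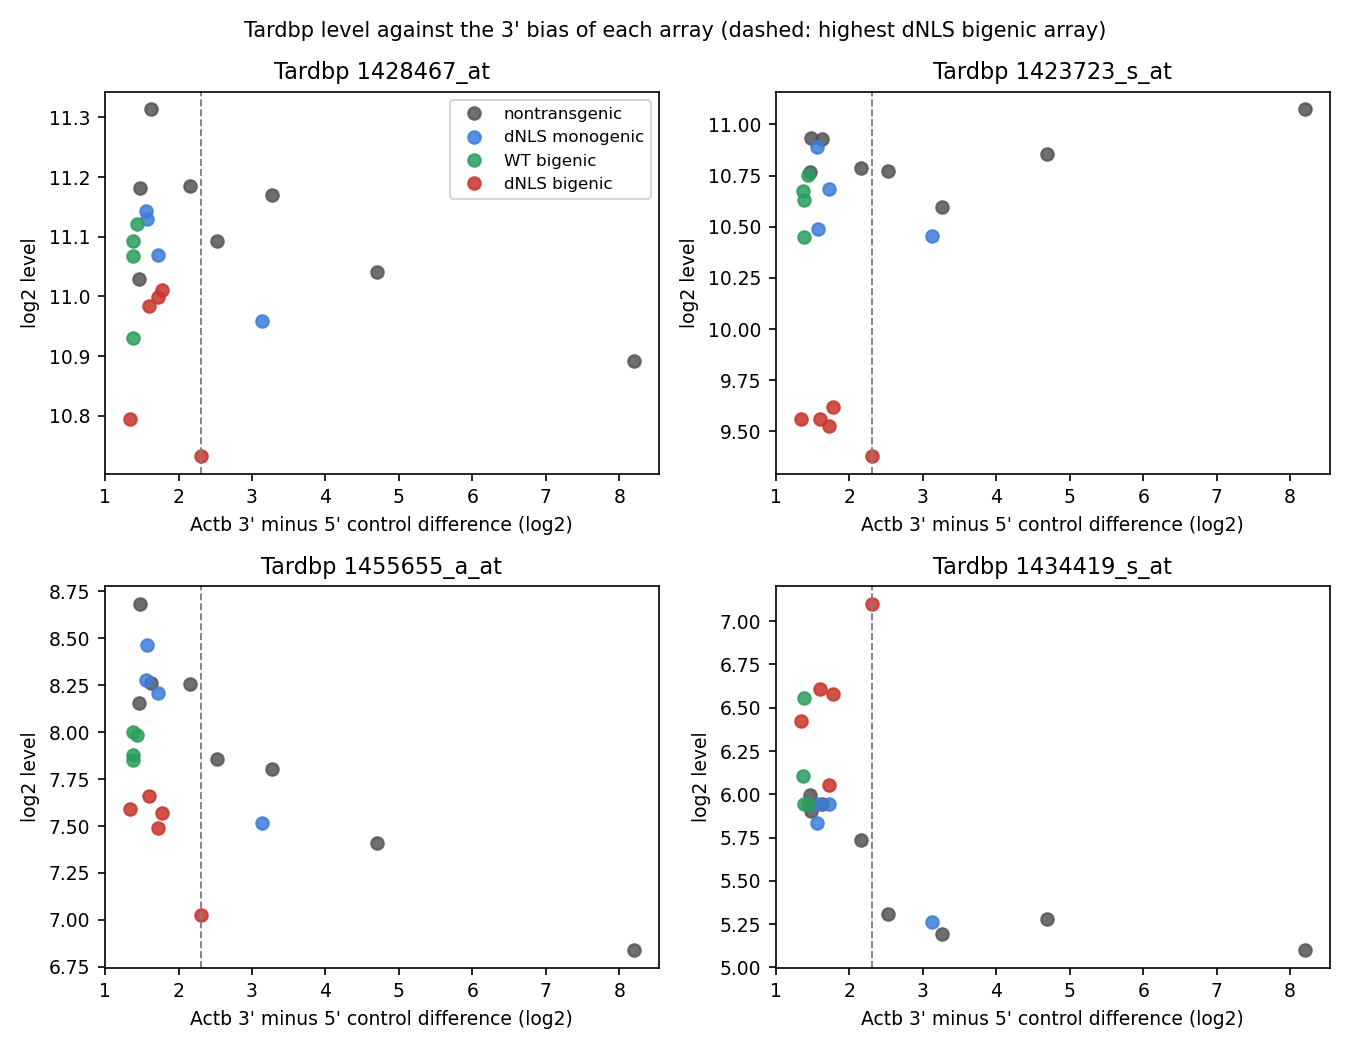
Log2 level of each Tardbp probe set (vertical axis) against the Actb 3' minus 5' control difference of the array in log2 (horizontal axis), coloured by group, with a dashed line at the highest dNLS bigenic value, 2.30. Left of that line all dNLS bigenic mice lie below all others for 1455655_a_at, whereas the nontransgenic mice to its right reach down to 6.84.

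On arrays of like bias, 1455655_a_at was lower in dNLS bigenic mice as well. When only arrays with a bias of up to 2.30, the highest dNLS bigenic value, were used, a choice made after the data were seen, 4 nontransgenic and 3 dNLS monogenic mice remained beside all bigenic mice. The 4 nontransgenic mice were mice 3 and 5 of line NLS4 and mice 7 and 8 of line WT12, all female except mouse 3. They read 8.15 to 8.68 for 1455655_a_at against 7.03 to 7.66 in dNLS bigenic mice, with no overlap. The change was -0.92 ± 0.15 (adjusted p = 8.3e-04), more than the -0.43 over all arrays. With the bias as a covariate over all arrays it was -0.79 (adjusted p = 1.4e-04). Over arrays of any bias, it was -0.27 ± 0.23 from the 6 nontransgenic mice of line NLS4 alone (limma, adjusted p = 0.50). Against the 3 dNLS monogenic mice on arrays of like bias the change of 1455655_a_at was -0.86 (adjusted p = 0.0013), and against WT bigenic mice -0.51 (adjusted p = 0.032).

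The other three probe sets kept their direction on these arrays. The change from nontransgenic was -1.40 for 1423723_s_at (adjusted p = 8.1e-07), -0.32 for 1428467_at (adjusted p = 0.0085) and 0.83 for 1434419_s_at (adjusted p = 0.0050). The rise of 1434419_s_at was smaller than over all arrays, since the nontransgenic mice on these arrays had a mean level of 5.89 ± 0.11 (SD, n = 4). The changes in WT bigenic mice on these arrays were -0.23 for 1423723_s_at, -0.12 for 1428467_at, -0.41 for 1455655_a_at and 0.24 for 1434419_s_at, and none passed.

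**Figure D5:**
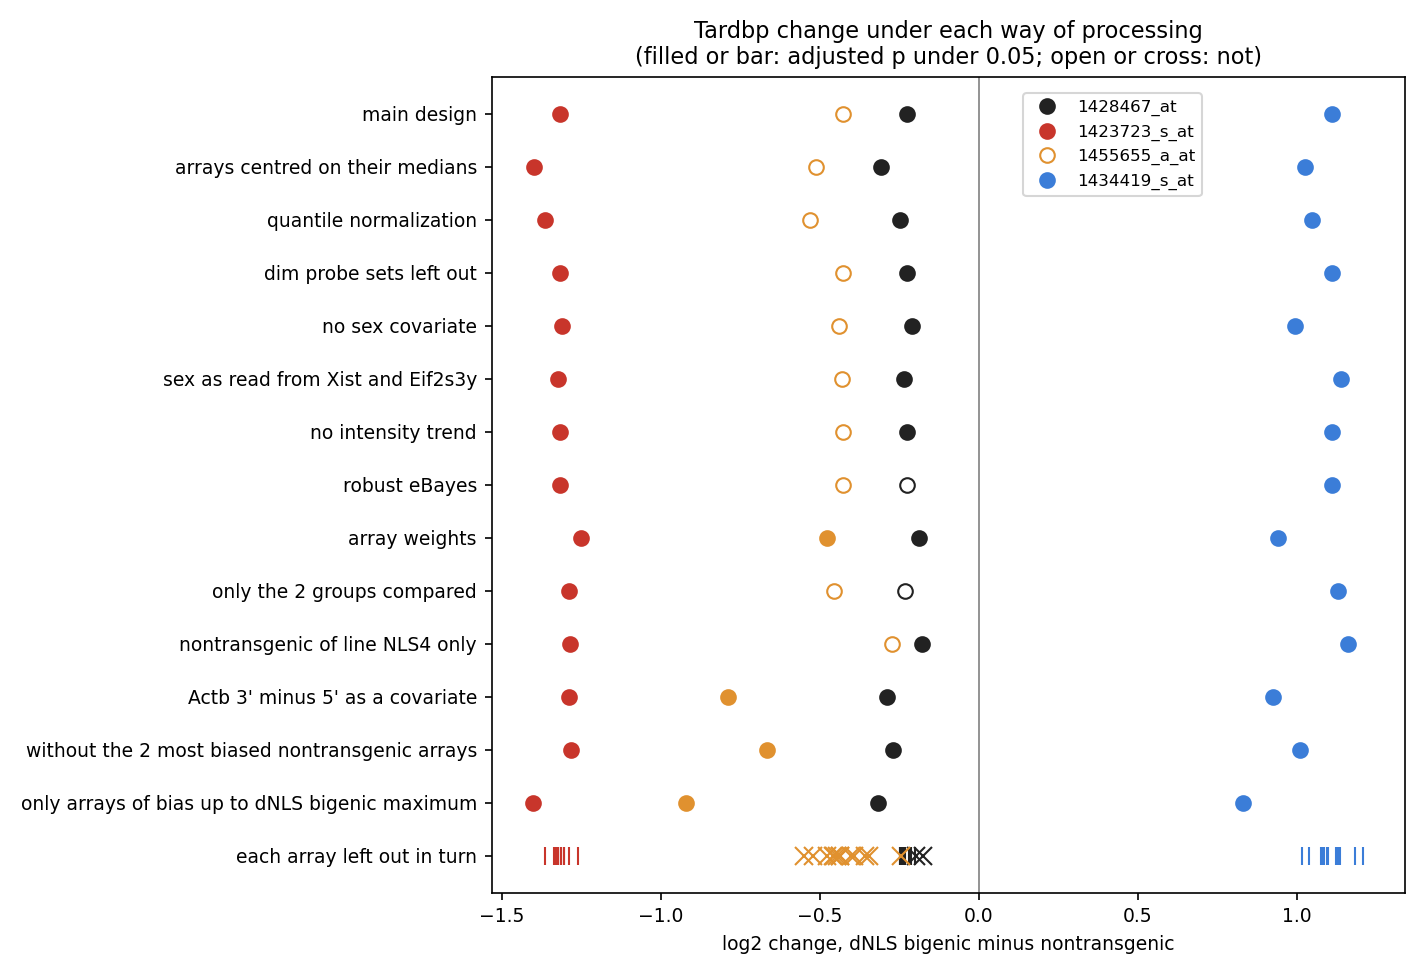
Log2 change of the 4 Tardbp probe sets in dNLS bigenic against nontransgenic mice (horizontal axis) under each way of processing (vertical axis), filled where the adjusted p lay under 0.05, with each array left out in turn on the last line. Over the arrays left out, 1423723_s_at stays between -1.36 and -1.26 and 1434419_s_at between 1.02 and 1.21.

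The probe sets whose log2 levels ran most like those of each Tardbp probe set over the 21 arrays were ranked by Pearson's r among 13157 probe sets that name 1 gene and lie above the lowest value on all arrays. For 1423723_s_at these were Zmat2 (r = 0.98), Camkk2 (r = 0.97), Map2k1 (r = 0.96), Dazl (r = 0.96) and Rreb1 (r = 0.95). Zmat2 is a zinc finger protein, Camkk2 and Map2k1 are kinases, Dazl is an RNA-binding protein of germ cells and Rreb1 is a transcription factor. Each was lower in dNLS bigenic than in nontransgenic mice, by 0.77 (Map2k1) to 2.53 (Dazl) on the log2 scale. Dazl was dim, with a mean of 5.13 in nontransgenic mice and of 2.54 in dNLS bigenic mice, near the lowest value of the table, 2.04. Since the ranking included the differences between groups, these falls follow at least in part from the selection. For 1434419_s_at they were Sdf4 (r = 0.92), Washc2 (r = 0.92), Mrpl41 (r = 0.91), Gtf2f2 (r = 0.90) and Plgrkt (r = 0.90).

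For 1428467_at the closest were Plk2 (r = 0.84), Czib (r = 0.84), Smpd4 (r = 0.84), Dnajb6 (r = 0.83) and Rgs4 (r = 0.82). For 1455655_a_at they were Trim37 (r = 0.95), Eloc (r = 0.95), Ntm (r = 0.94), Vdac1 (r = 0.94) and Rnf11 (r = 0.94), and none of these 5 passed between dNLS bigenic and nontransgenic mice. By deviations from the group means, which leave out the differences between groups, 1423723_s_at ran closest to Shisa2 (r = 0.91), Npas2 (r = 0.86) and Ccnt2 (r = 0.83). The deviations of 1455655_a_at ran with those of Rnf11, Taok1 and Bpnt2 (r = 0.98 each), those of 1428467_at with Malat1 (r = 0.83), Dclk1 (r = 0.82) and B230308N11Rik (r = 0.81), and those of 1434419_s_at with 2 probe sets of Acyp1 (r = 0.82 and 0.80) and with Sdf4 (r = 0.80).

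The genes beside Tardbp in the RefSeq table were read for comparison. Masp2, a complement protease gene, overlaps Tardbp on the opposite strand. Its probe set 1420524_a_at was at the lowest value on 17 of 21 arrays, and 1451759_at had group means of 2.52 to 3.01; neither passed in dNLS bigenic against nontransgenic mice (adjusted p = 0.42 and 1). On the other side the nearest gene with a probe set was Pex14, a component of peroxisomal protein import, with 8 genes between. Pex14 was higher in dNLS bigenic than in nontransgenic mice by 0.93 ± 0.16 (adjusted p = 3.5e-04) and gave -0.10 ± 0.17 in WT bigenic mice (adjusted p = 0.93).

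The machinery that acts on Tardbp mRNA was described by 4 gene lists, each gene read by its probe set of highest mean. Of cleavage and polyadenylation factors, 16 of 18 were measured; 2 rose and 4 fell in dNLS bigenic mice, with a median change of -0.10. Of all 22626 probe sets 19.3% passed in this comparison, 2276 higher and 2101 lower, with a median change of 0. The share was 22.3% with 1 probe set per gene, and 31.5% among probe sets above the lowest value in at least 4 arrays. Nearly all list genes lay above the lowest value, so the counts of each list are to be read against the higher shares as well. Clp1, a kinase of the cleavage complex, rose by 0.71 ± 0.21 and Cpsf4, a subunit that recognises the polyadenylation signal, by 0.37 ± 0.08. Fip1l1, of the same complex, changed by -0.29 ± 0.06 and Cstf2, which binds downstream of the cleavage site, by -0.24 ± 0.06. In WT bigenic mice, where 1.9% of all probe sets passed, Cpsf4 (0.38, adjusted p = 0.038) and Cstf2 (-0.27, adjusted p = 0.047) passed as well. On arrays of like 3' bias, where 21.1% of all probe sets passed, the list had 3 genes up and 3 down in dNLS bigenic mice, and Clp1 and Cstf2 did not pass. Of the nuclear RNA exosome, which degrades RNA from its 3' end, 10 of 12 genes were measured. Exosc2 rose by 0.61 ± 0.20, Exosc9 changed by -0.59 ± 0.13, and the median change of the list was -0.02. Exosc2 did not pass after the arrays were centred on their medians or normalized by quantiles. Of 5 measured factors of nonsense-mediated decay, out of 10 listed, 0 passed in either direction by limma, with a median change of 0.07, and 1 of the 5 was at the lowest value on all arrays. On arrays of like 3' bias 3 of the 5 were higher in dNLS bigenic mice, with a median change of 0.27.

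Genes known to limit their own mRNA through unproductive splicing, the class of feedback nearest to that of Tardbp, were measured for 15 of 17. In dNLS bigenic mice 0 rose and 5 fell, with a median change of -0.09. Beside this, 19.3% of all probe sets passed in both directions together, and 31.5% of those above the lowest value in at least 4 arrays. The largest were the splicing factor Srsf4 (-0.63 ± 0.15) and the RNA-binding protein Hnrnpd (-0.59 ± 0.10), and the next Tra2a (-0.30 ± 0.09) and Hnrnpdl (-0.29 ± 0.09). In WT bigenic mice 1 fell, Tra2a (-0.41 ± 0.10, adjusted p = 0.045). On arrays of like 3' bias Srsf4, Tra2a and Hnrnpdl did not pass, and the list had 1 higher and 3 lower.

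Another pair of lists concerned TDP-43 itself. Of 14 genes for proteins that bind TDP-43, 10 were measured, of which 1 rose and 3 fell, with a median change of -0.08. Beside this, 19.3% of all probe sets passed, and 31.5% of those above the lowest value in at least 4 arrays. Ubqln2, a shuttle factor of protein degradation, changed by -0.50 ± 0.08, Matr3, a nuclear matrix protein, by -0.25 ± 0.07 and Hnrnpa2b1 by -0.20 ± 0.06. The import receptor Kpnb1 changed by 0.17 ± 0.04 and did not pass after centring or on arrays of like 3' bias. The list had 0 higher and 4 lower after centring, where 18.9% of all probe sets passed. On arrays of like 3' bias, where 21.1% passed, it had 0 higher and 5 lower. Of 9 transcripts known to be regulated by TDP-43, 7 were measured, 1 of them at the lowest value on all arrays. The neurofilament gene Nefl (-0.45 ± 0.07) and Poldip3 (-0.43 ± 0.13) fell, 0 rose, and the median change was -0.09. For WT bigenic mice 0 of either list passed by limma.

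Markers of the cells that contribute Tardbp RNA were read in the same comparison. In it 19.3% of all probe sets passed, and 31.5% of those above the lowest value in at least 4 arrays. Pan-neuronal markers gave 2 higher and 1 lower of 11, interneuron markers 1 and 2 of 7, astrocyte markers 0 and 1 of 7, microglial markers 0 and 2 of 8, oligodendrocyte markers 0 and 1 of 5 and endothelial markers 0 and 0 of 6. On arrays of like 3' bias the interneuron markers Gad1 and Sst, the microglial markers Gpr34 and Tmem119 and the astrocyte marker Aldh1l1 did not pass, which were all the called falls of these 3 lists. The counts there were 1 higher and 0 lower for interneurons, 0 and 1 for microglia and 0 and 1 for astrocytes. They were 3 and 3 for pan-neuronal, 0 and 3 for excitatory neuron, 0 and 1 for oligodendrocyte and 0 and 1 for endothelial markers. Of 5 measured excitatory neuron markers 0 rose and 2 fell over all arrays. These were Slc17a6, a glutamate transporter (-1.54 ± 0.13), and Tbr1, a transcription factor of deep layers (-0.30 ± 0.09). Tbr1 did not pass without nontransgenic mice 4 and 6 or on arrays of like 3' bias. The summed level of the 5 was 13.29 to 13.76 in dNLS bigenic and 13.82 to 14.18 in nontransgenic mice. The summed pan-neuronal level was 16.11 to 16.24 against 15.98 to 16.27. No gene of these marker lists was at the lowest value on all arrays. The part of a change in cell content in the Tardbp changes was not tested. The probe set of Camk2a, whose promoter drives tTA, gave 0.76 ± 1.22 (adjusted p = 0.88).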

How the data were processed

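The deposited values are log2 levels of 22690 probe sets, per the file and the labels; the base was read from their range of 2.04 to 15.1. Partek is named in the submitters' processing notes without a version or role, and how the authors corrected background, normalized and summarized the probes is not given in the sources used here. After 64 control probe sets were set aside, 22626 were fitted in limma 3.58.1 under R 4.3.3 (lmFit, eBayes with an intensity trend) with the 4 groups and the labelled sex, over all 21 arrays, with Benjamini-Hochberg adjustment over all of them. The Xist and Eif2s3y readings of 1 array differed from its sex label. Array medians lay between 5.76 and 6.05, and the number of arrays limits the precision. Pairs of probe sets and correlations were tested by exact permutation in Python 3.11.15 with scipy 1.17.1, and figures were drawn with matplotlib 3.10.9.

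Named are all Tardbp probe sets, the 5 probe sets nearest in level and the 3 nearest in deviation to each, the neighbouring genes, and at most 4 passing genes of a list. The 13 gene lists were nonsense-mediated decay, nuclear RNA exosome, cleavage and polyadenylation, unproductive splicing, TDP-43 binding proteins, TDP-43-regulated transcripts and 7 lists of cell type markers. The members, lists and tests were chosen with earlier results of these data known. The code was tested on simulated data. Alternatives were other normalizations, filters, covariates and weights, other choices of arrays and each array left out in turn. Sequences were not printed, since the probe sequences were not used here.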

Additional observations from a re-analysis of the deposited data

Results flagged for a closer look

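Of 40 groups of values examined for an outlying array, from the 4 Tardbp probe sets and their 6 within-array differences, 2 held one by Dixon's test, where chance alone gives about 1 in 20. The level of 1455655_a_at was 7.03 in dNLS bigenic mouse 5, below the other four of its group; this mouse was the only female of the group and had its highest Actb 3' minus 5' difference, 2.30. The level of 1434419_s_at was 5.26 in dNLS monogenic mouse 2, below the others of its group, and that array had the group's highest Actb difference, 3.13. In that group mice 3 and 4 had the identical value 5.94, and with tied values the chance rate of Dixon's test need not hold. The part of RNA quality in both outlying values was not tested. The change of 1423723_s_at differed between the lines: the change in line NLS4 with the dNLS transgene minus that in line WT12 with the unaltered one was -0.97 (interaction in limma, adjusted p = 0.0020), with 2 nontransgenic mice of line WT12.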

How the results depend on the processing

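The fall of 1423723_s_at and the rise of 1434419_s_at in dNLS bigenic against nontransgenic mice kept their direction and passed under every alternative run, and so did the fall of 1423723_s_at against dNLS monogenic and WT bigenic mice and its difference between the lines. Unless a value shows it, the cause of a move below was not tested. The change of 1428467_at from nontransgenic did not pass with robust eBayes (-0.22) or with only the 2 groups compared (-0.23), and ran from -0.25 to -0.17 with each array left out. That of 1434419_s_at from dNLS monogenic ran from 0.69 to 0.93. The change of 1455655_a_at from nontransgenic passed with array weights (-0.48), with Actb bias as a covariate (-0.79), without nontransgenic mice 4 and 6 (-0.67) and on arrays of like bias (-0.92), the last chosen after seeing the data. Against nontransgenic mice of line NLS4 alone 1455655_a_at did not pass (-0.27). Its change from dNLS monogenic passed under the same 4 settings (-0.66, -0.71, -0.64 and -0.86), and 1428467_at passed there with the covariate (-0.19). Against WT bigenic, 1455655_a_at passed with only the 2 groups compared (-0.64) and on arrays of like bias (-0.51), and 1434419_s_at with array weights (0.65), the covariate (0.67), without mice 4 and 6 (0.67) and on arrays of like bias (0.59). Between lines 1434419_s_at passed with array weights (0.89).

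In WT bigenic mice 1423723_s_at passed after centring (-0.32), and the near-zero change of 1455655_a_at turned negative after centring (-0.10, the common shift of -0.11 of all probe sets), quantile normalization (-0.066) and array weights (-0.24), with only the 2 groups compared (-0.0014), with WT12 controls (-0.58), the covariate (-0.44), without mice 4 and 6 (-0.27) and on arrays of like bias (-0.41), and ran from -0.19 to 0.16 with each array left out. In dNLS monogenic mice it turned negative in the last 3 settings (-0.079, -0.024 and -0.060). The line difference of 1428467_at turned negative after centring (-0.022, the common shift of -0.065), quantile normalization (-0.024), the covariate (-0.016), without mice 4 and 6 (-0.0027) and on arrays of like bias (-0.015), and ran from -0.023 to 0.11 with arrays left out. That of 1455655_a_at did so in the last 3 (-0.13, -0.0050 and -0.20).

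For pairs in dNLS bigenic against nontransgenic mice, 1428467_at minus 1455655_a_at passed without mice 4 and 6 (0.44) and on arrays of like bias (0.60), where 1423723_s_at minus 1455655_a_at did not (-0.45; -0.97 to -0.68 with arrays left out). In WT bigenic mice 1428467_at minus 1455655_a_at turned positive without mice 4 and 6 (0.13), with WT12 controls (0.35) and on arrays of like bias (0.29), and ran from -0.18 to 0.040 with arrays left out. There 1423723_s_at minus 1455655_a_at did so as well (0.070, 0.24 and 0.18). In dNLS monogenic mice 1455655_a_at minus 1434419_s_at turned negative without mice 4 and 6 (-0.12) and on arrays of like bias (-0.035), and ran from -0.067 to 0.082. With each array left out in turn, 63 of 173 pair results that passed over all arrays did not pass and 3 of 157 others did; fewer mice also raise the smallest p that permutation can give. Without mice 4 and 6 the correlation with the bias was -0.06 for 1428467_at, -0.84 for 1423723_s_at and -0.80 for 1455655_a_at.

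Over all probe sets, calls in WT bigenic against nontransgenic mice numbered 430, and 9682 after centring, when 5.0% of them were higher against 34.9%, 15 with WT12 controls, 4 with only the 2 groups compared, and from 62 without WT bigenic mouse 3 to 924 without nontransgenic mouse 5. Calls in dNLS bigenic against nontransgenic mice numbered 4377, and 6945 with array weights; after centring 39.8% of them were higher, against 52.0%. The mouse numbers used here count within each group and do not match mice between groups, so no paired analysis was made.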
